A study of Mus musculus with 6 samples.

Results

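The respiratory chain transcripts of bone marrow derived macrophages were compared between wild-type mice (WT) and mice with the cluster of miR-130b and miR-301b knocked out (KO). The genes were taken by symbol from a table of 13254 genes: every Nduf gene, the 4 succinate dehydrogenase genes, and every gene whose symbol begins with Uqcr, Cox4 to Cox8, Atp5 or mt-. This gave 109 rows, 94 from the nuclear genome and 15 from the mitochondrial genome. Bone marrow derived macrophages are macrophages grown in culture from bone marrow, and each genotype was represented by 3 samples of total RNA sequenced in paired ends. The labels name no strain, age, sex or treatment beyond genotype, and say neither how the cluster was deleted nor in which cells. Nothing states that replicates are separate animals, so p-values here describe variation among the samples, part of which could be technical. Values are CPM as deposited, whose column totals show a further scaling between libraries, and the depth in reads is unknown.

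The respiratory chain passes electrons from NADH and succinate to oxygen through complexes I to IV of the inner mitochondrial membrane, and complex V, the ATP synthase, uses the proton gradient that results. Most subunits are encoded in the nucleus and imported, whereas a small core of the membrane subunits of complexes I, III, IV and V is encoded by mitochondrial DNA and translated by the mitochondrion's own ribosomes. Complex II is wholly nuclear. In macrophages the balance between this chain and glycolysis is known to shift with the activation state.

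The macrophage markers Lyz2, Csf1r, Adgre1, Cd68, Itgam, Mrc1 and Fcgr1 were all present. They summed to 19971 to 20503 CPM in KO and 18349 to 18869 CPM in WT. Lyz2 held the largest part of that sum, with means of 12163 CPM in KO and 10513 CPM in WT (log2 fold change 0.21, limma adjusted p = 0.0855). Of the 7 markers 4 had estimates above 0, whereas Cd68, Itgam and Mrc1 were below 0, and none had an adjusted p under 0.05. Markers of stromal cells summed to 6.09 to 37.5 CPM in KO and 54.2 to 62.5 CPM in WT, and 3 of the 7 tested fell in KO (Col3a1, Postn and Col12a1), compared with 0.787% of all tested genes. All 7 had lower values at an unadjusted p under 0.05, compared with 7.3% of all tested genes. All 7 also had KO samples all below WT samples, compared with 9.1% of all tested genes. Their median log2 fold change was -1.18. Neutrophil markers summed to 183 to 231 CPM in KO and 208 to 228 CPM in WT. Of the 8 tested 2 fell (Mmp8 and Mpo), compared with 0.787% of all tested genes. At an unadjusted p under 0.05, 3 of the 8 had lower values, compared with 7.3% of all tested genes. Their median log2 fold change was -0.15, and 2 of the 8 (Ltf and Camp) were above 0. Markers of T and B cells stayed under 2 CPM in sum, dendritic cell markers under 3 CPM, and the 5 erythroid markers were not among the rows. Their part in the results on the respiratory chain was not tested. In RNA from a whole culture, fewer cells of a type and less RNA per cell cannot be told apart.

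The rows of the mitochondrial genes have near-identical partners elsewhere in the table. Along the nuclear chromosome 1 lies a stretch copied from mitochondrial DNA, and the table counts 7 of its pieces as genes of their own beside the mt- genes. In the GENCODE M21 annotation (build GRCm38, which differs from the GRCm39 named in the submitters' processing notes) they follow one another on the minus strand at chr1:24611535-24616197. In order from the lowest coordinate they are Gm28439, Gm10222, Gm28438, Gm28437, Atp6-ps, Gm28661 and Gm29216, annotated as unprocessed pseudogenes. They match mt-Nd4, mt-Nd4l, mt-Nd3, mt-Co3, mt-Atp6, mt-Co2 and mt-Co1. Over the aligned length 5 of the 7 were identical to the mitochondrial gene, among them Gm28437 with 783 bases of mt-Co3, and the other 2 differed by a single base each. The first 30 bases of mt-Co3, a core subunit of cytochrome c oxidase, and of its copy show why reads from one cannot be told from reads of the other. The mt-Nd3 and mt-Co1 windows hold the only differences over the aligned length, in capitals.
mt-Co3: atgacccaccaaactcatgcatatcacata
Gm28437: atgacccaccaaactcatgcatatcacata
mt-Nd3: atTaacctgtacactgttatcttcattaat
Gm28438: atCaacctgtacactgttatcttcattaat
mt-Co1: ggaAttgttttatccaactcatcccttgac
Gm29216: ggaTttgttttatccaactcatcccttgac
Counted from 1 at the first base of the mitochondrial gene, the differences are T3C in mt-Nd3 and A1066T in mt-Co1. How the authors' counting divided reads between such rows is not given in the sources used here.

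Overlaps between neighbours also limit how single mitochondrial genes are read. They join mt-Atp8 with mt-Atp6 over 43 bases and mt-Nd4l with mt-Nd4 over 7 bases, on the same strand. Capitals mark the shared bases at the start of mt-Nd4, all 7 of them, and the first 24 of the 43 shared by mt-Atp8 and mt-Atp6.
mt-Nd4l to mt-Nd4: caacctactacaATGCTAAaaattattctt
mt-Atp8 to mt-Atp6: attaaaATGAACGAAAATCTATTTGCCTCA
The genes mt-Nd5 and mt-Nd6 overlap by 14 bases on opposite strands, and mt-Nd6 is the only member of the mitochondrial set on the minus strand. No strand setting is given in the sources used here, so reads of mt-Nd6 and of antisense RNA across it cannot be told apart.

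None of the 105 members that passed the filter on low values (at least 1 CPM in at least 3 samples) passed the test of KO against WT (limma on log2(CPM + 1), Benjamini-Hochberg adjusted p under 0.05 over all 11556 genes tested). Across all tested genes 147, or 1.27%, passed that threshold, 0.485% higher and 0.787% lower in KO. At an unadjusted p under 0.05, 8 members passed, of which 7 were mitochondrial mRNAs with lower values in KO and 1 was Atp5mg with higher values, whereas 12.5% of all tested genes did, 5.24% with higher and 7.3% with lower values. The count of 7 mitochondrial mRNAs rested on the settings and samples: it was 3 without KO 2, KO 3 or WT 1, 4 without WT 3 and 11 without WT 2. It was 10 with the replicate number as a block, and 3 with no mean-variance trend, with quantile normalization or with columns scaled without mt- genes. That last setting gives every column an equal total without mt- genes, so it also undoes the deposited scaling between libraries. It moved the median log2 fold change of all tested genes from -0.00035 to 0.020. The KO and WT samples did not overlap for 8 members, 3 with KO above (Ndufb4, Uqcr11 and Atp5mg) and 5 with KO below (Ndufb5, Cox7a2, mt-Nd5, mt-Co3 and mt-Nd6). Among all tested genes 17.7% did not overlap, 8.55% with KO above and 9.1% with KO below. The 4 members left untested were the testis-type isoform gene Cox6b2 and the copies Ndufa12-ps, Ndufb4b and Atp5pb-ps, all with means under 1 CPM in both groups.

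**Figure D1:**
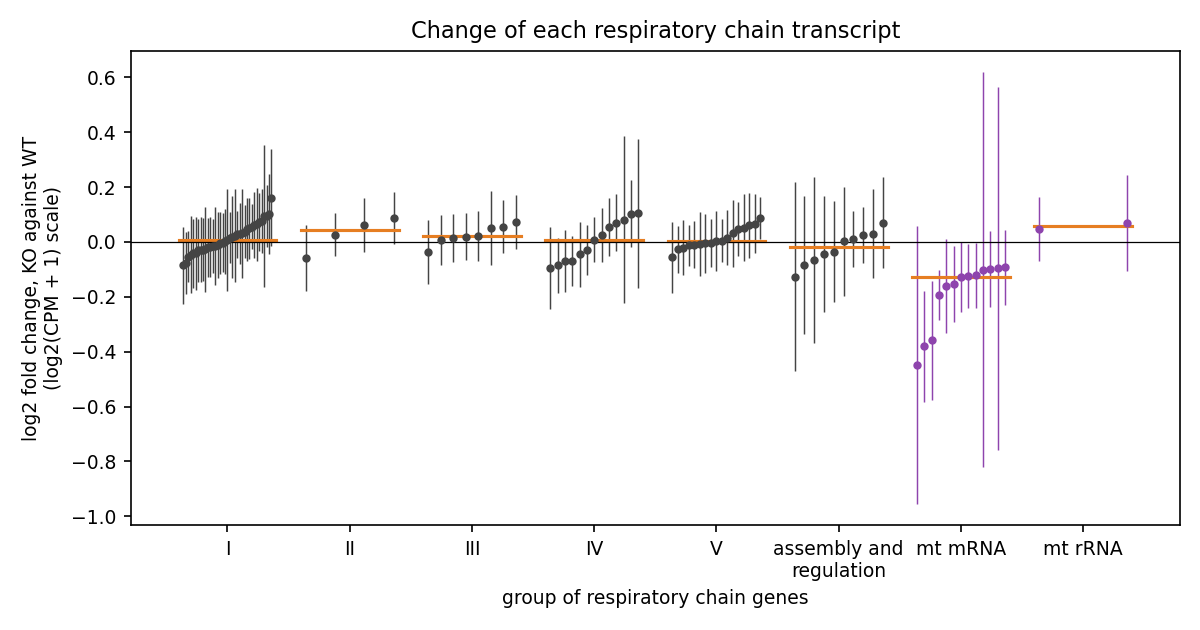
The vertical axis is the log2 fold change of KO against WT on the log2(CPM + 1) scale, and each point is 1 of the tested subunit, assembly or mitochondrial genes with its 95% interval before adjustment (n = 3 samples a group); orange lines are group medians. The medians of complexes I to V lie between 0.00 and 0.04, the median of the mitochondrial mRNAs is -0.13, and no member passed the adjusted threshold.

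The nuclear subunits differed little between genotypes, with narrow intervals. Over the 79 tested subunit genes of complexes I to V the median log2 fold change was 0.01, with 46 above 0 and 33 below, against -0.00 over all tested genes. The single values ran from -0.10 for Cox6c to 0.16 for Ndufa5. The 95% interval of the difference stayed within 0.3 on the log2 scale in either direction for 75 of the 79, compared with 7962 of the 11556 tested genes. The median width on either side of the estimate was 0.11 for these subunits and 0.15 for all tested genes.

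Summed over their subunits, the complexes differed by less than the spread between samples. Complex I, the NADH dehydrogenase, came to 1579, 1553 and 1511 CPM over its 37 nuclear genes in KO samples 1 to 3 and to 1476, 1576 and 1548 CPM in WT samples 1 to 3, a log2 ratio of the means of 0.01. Complex II, succinate dehydrogenase, came to 542, 537 and 544 CPM in KO and 517, 536 and 545 CPM in WT (log2 ratio 0.02). Complex III, which hands electrons from ubiquinol to cytochrome c, came to 536, 519 and 521 CPM in KO and 503, 520 and 525 CPM in WT (log2 ratio 0.03). Its cytochrome c1 gene, Cyc1, is not matched by the symbol rule and is not in that sum; it had 42.2, 35.6 and 36.4 CPM in KO and 40.5, 40.1 and 36.8 CPM in WT (log2 fold change -0.04, adjusted p = 0.866). In each of these 3 sums the lowest sample was WT 1, and the genotypes overlapped. Complex IV, cytochrome c oxidase, came to 1045, 1011 and 979.8 CPM in KO and 985, 1036 and 1034 CPM in WT, a log2 ratio of -0.01. This ratio became 0.01 when columns were scaled to the total without mt- genes, which also undoes the deposited scaling between libraries. Complex V came to 2483, 2381 and 2379 CPM in KO and 2323, 2425 and 2456 CPM in WT (log2 ratio 0.01). The same libraries lay at the edges again: WT 1 was the lowest sample for 39 of the 79 tested nuclear subunits, and KO 1 the highest for 35.

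**Figure D2:**
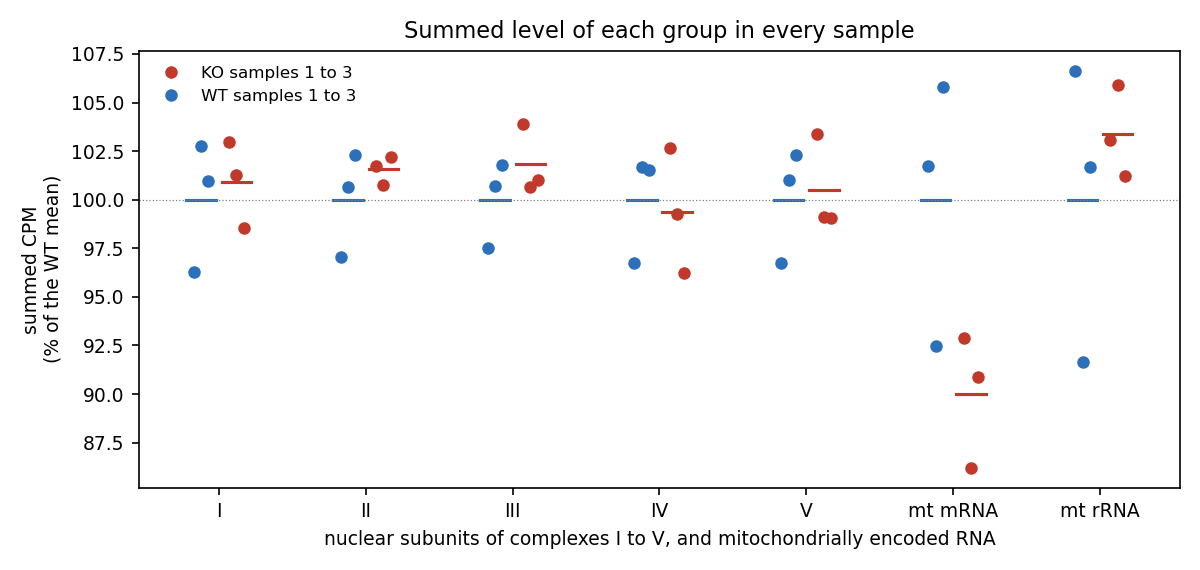
The vertical axis is the summed CPM of each group as a percentage of its WT mean; points are the 3 samples of each genotype in order 1 to 3 and bars are group means. Genotypes overlap in every group, and the mitochondrial mRNAs have the lowest KO mean, 10.01% below WT.

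Within complex I the 7 nuclear core subunits, which carry the flavin and the iron-sulfur clusters, had a median log2 fold change of 0.02 and the 30 accessory subunits of 0.00. Ndufs1, the largest iron-sulfur subunit, had 80.9, 81.9 and 81.5 CPM in KO and 76.5, 86.2 and 82.4 CPM in WT. The KO samples of Ndufs1 all lay inside the WT range, and its fold change of -0.00 changed sign under several settings. The flavoprotein subunit Ndufv1 had a log2 fold change of -0.03 and the accessory subunits Ndufs4, Ndufb8 and Ndufab1 (the acyl carrier protein) of -0.03, 0.05 and -0.03. The largest estimates of either sign were those of Ndufa5 and Ndufs5. Ndufa5, an accessory subunit of the arm that faces the matrix, had 22.4, 18.7 and 19.9 CPM in KO and 18.0, 19.1 and 17.0 CPM in WT (log2 fold change 0.16, SE 0.0775, interval -0.02 to 0.34, limma adjusted p = 0.449). Only KO 1 and KO 3 exceeded all WT samples. Ndufs5 had 31.9, 33.9 and 31.6 CPM in KO and 32.0, 34.8 and 36.9 CPM in WT (log2 fold change -0.09, adjusted p = 0.623).

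The accessory subunit Ndufb4 looked separated as deposited, with 30.03, 30.8 and 30.1 CPM in KO and 27.3, 28.1 and 29.7 CPM in WT. All 3 KO samples lay above all WT samples by a small margin (log2 fold change 0.10, limma adjusted p = 0.484, exact permutation p = 0.1, the smallest that 3 samples against 3 allow). A second row, Ndufb4c, matched it without mismatch over 390 bases and was listed at 0, 1.90 and 1.94 CPM in KO and at 2.75, 1.60 and 2.03 CPM in WT. Summed, the pair had 30.03, 32.7 and 32.1 CPM in KO and 29.998, 29.7 and 31.7 CPM in WT (log2 fold change 0.05, adjusted p = 0.757), and the genotypes overlapped. The copies Ndufa12-ps and Gm10250, which match Ndufa12 and the peripheral stalk gene Atp5pd, took at most 1.07% of their pair in any sample. Ndufb4b was listed at 0 in KO 2, and its sequence was not examined here.

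The 4 complex II genes showed Sdha, the flavoprotein that oxidises succinate, at 240.2, 236 and 239 CPM in KO and 226, 237 and 240.1 CPM in WT. The iron-sulfur subunit Sdhb had 101.9, 100.2 and 94.4 CPM in KO and 91.1, 95.7 and 91.9 CPM in WT (log2 fold change 0.09, interval -0.01 to 0.18, limma adjusted p = 0.443). KO 3 fell inside the WT range of Sdhb and the other 2 KO samples lay above it. The membrane anchors went to opposite signs, -0.06 for Sdhc and 0.06 for Sdhd, and neither passed the test (adjusted p = 0.705 and 0.601). In complex III, 7 of the 8 estimates, which leave out Cyc1, were above 0 and none passed. Its core proteins Uqcrc1 and Uqcrc2 had log2 fold changes of 0.06 and 0.01, the Rieske iron-sulfur protein Uqcrfs1 0.01, and the small subunits Uqcrq and Uqcr11 -0.04 and 0.07. For Uqcr11 the KO samples had 37.3, 36.2 and 37.7 CPM and the WT samples 34.6, 35.4 and 35.7 CPM, separated by less than 1 CPM (adjusted p = 0.543).

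In complex IV the most abundant nuclear transcript was Cox4i1, the subunit through which ATP is known to slow the enzyme, at 207.7 CPM ± 5.87 (SD, n = 3) in KO and 206.6 ± 5.25 in WT. Small membrane subunits had estimates of both signs, none past the test. Cox6c had 66.4, 60.6 and 59.0 CPM in KO and 60.8, 70.4 and 67.8 CPM in WT (log2 fold change -0.10, interval -0.24 to 0.05, adjusted p = 0.599), and Cox7a2 had 61.9, 59.5 and 61.7 CPM in KO and 62.1, 65.3 and 64.9 CPM in WT (log2 fold change -0.07, adjusted p = 0.526). The KO values of Cox7a2 lay just below all WT values, whereas those of Cox6c spanned the lowest WT sample. Cox8a had 88.0, 92.3 and 81.3 CPM in KO and 77.9, 81.1 and 84.2 CPM in WT (log2 fold change 0.10, adjusted p = 0.484). Cox7c (0.07), Cox5b (0.06), Ndufa4 (0.02, named for complex I and a subunit of complex IV), Cox6b1 (-0.03), Cox5a (-0.05), Cox6a1 (-0.07) and Cox7b (-0.09) filled the range between, on the log2 fold change scale. The isoforms known from heart and muscle were near the lower limit of the table: Cox6a2 averaged 0.979 CPM and Cox7a1 1.11 CPM over all 6 samples, beside 97.5 CPM for Cox6a1 and 62.6 CPM for Cox7a2. Cox6b2 averaged 0.324 CPM beside 125.6 CPM for Cox6b1. The 2 tested isoforms had log2 fold changes of 0.08 and 0.10 (adjusted p = 0.862 and 0.78).

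Complex V held the most abundant nuclear transcripts of the chain. Atp5f1b, the catalytic beta subunit, had 591, 539 and 557 CPM in KO and 529, 575 and 580 CPM in WT, with a log2 fold change of 0.00 (interval -0.11 to 0.11). Atp5f1a, the alpha subunit, averaged 552 CPM ± 7.89 (SD, n = 3) in KO and 557 ± 15.1 in WT, and its log2 fold change of -0.01 became 0.02 under quantile normalization. The gamma subunit Atp5f1c had -0.01, which became 0.01 when columns were scaled without mt- genes, and the 3 genes for the c ring, Atp5mc1, Atp5mc2 and Atp5mc3, had 0.07, 0.02 and 0.06. The membrane subunit Atp5mg, the g subunit, sits at the dimer interface. In the test of KO against WT described above it was the single nuclear member with an unadjusted p under 0.05. It had 120.3, 121 and 118 CPM in KO and 110.5, 112 and 115 CPM in WT, with all KO samples above all WT samples (log2 fold change 0.09, SE 0.0336, interval 0.01 to 0.16, limma adjusted p = 0.335). Another membrane subunit, Atp5mk, had the lowest value of the complex, -0.06 (adjusted p = 0.745). The ATP synthase inhibitor Atp5if1 (0.02) and the supercomplex factor Cox7a2l (0.01) did not pass the test either.

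The 13 mitochondrial mRNAs all had estimates below 0, from -0.45 to -0.09 with a median of -0.13, and none passed the adjusted threshold. Below 0 lay 50.1% of all tested genes. Most of these mRNAs are cut from a long shared precursor, so they are not independent of one another. Their summed level was 12459, 11562 and 12192 CPM in KO and 13645, 12407 and 14189 CPM in WT, 10.01% lower in KO by the means (log2 ratio -0.15). The KO samples lay below WT 1 and WT 3, but KO 1 stood above WT 2. Leaving out WT 2 gave a log2 ratio of -0.21 and leaving out WT 3 gave -0.11. As a ratio to the nuclear subunits of complexes I, III, IV and V the sum was 2.21, 2.12 and 2.26 in KO and 2.58, 2.23 and 2.55 in WT (log2 ratio -0.16), and here too WT 2 fell within the KO range.

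The genes for complex I subunits held the smallest adjusted p. mt-Nd5, one of the proton-pumping subunits, had 1003, 926 and 996 CPM in KO and 1088, 1122 and 1132 CPM in WT. All KO samples lay below all WT samples (log2 fold change -0.19, SE 0.0398, interval -0.28 to -0.10, limma adjusted p = 0.0691). Over the alternative settings the adjusted p of mt-Nd5 ranged from 0.055 to 0.287. mt-Nd6, on the opposite strand, had 55.8, 52.4 and 60.3 CPM in KO and 65.1, 84.8 and 68.2 CPM in WT, again without overlap and with WT 2 highest (log2 fold change -0.36, adjusted p = 0.162). mt-Nd1, mt-Nd2 and mt-Nd4 had log2 fold changes of -0.13, -0.12 and -0.15 (adjusted p = 0.388, 0.379 and 0.349), each with WT 2 inside the KO range. For complex III, mt-Cytb, its cytochrome b, had a log2 fold change of -0.09 (adjusted p = 0.571).

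For complex IV, mt-Co1, the catalytic subunit and the most abundant member of all, had 4809, 4477 and 4811 CPM in KO and 5048, 4636 and 5434 CPM in WT (log2 fold change -0.10, adjusted p = 0.557). mt-Co2, which receives electrons from cytochrome c, had a log2 fold change of -0.16 (adjusted p = 0.436). mt-Co3 had 893, 845 and 903 CPM in KO and 1215, 973 and 1274 CPM in WT, a log2 fold change of -0.38 (SE 0.0892, interval -0.58 to -0.18, adjusted p = 0.109), with no overlap. It is the member whose call depended on the setting: it passed without WT 2 (-0.50, adjusted p = 0.00353) and with the replicate number as a block (adjusted p = 0.0343), settings under which 0.242% and 0.77% of all tested genes passed with lower values. Across the settings run on the rows as deposited its adjusted p ranged from 0.00353 to 0.324. For complex V, mt-Atp6 had a log2 fold change of -0.12 (adjusted p = 0.365), and mt-Atp8 had 262, 213 and 129 CPM in KO and 265, 298 and 231 CPM in WT, a log2 fold change of -0.45 with a wide interval of -0.95 to 0.06 (adjusted p = 0.459).

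Taking each mitochondrial gene with its nuclear copy changed which genes stood out. Sums of a gene and its copy were an alternative chosen after seeing the data. The 7 copies came to between 2808 and 3349 CPM in a sample, or 17.4% to 21.2% of the mitochondrial mRNA and copies together. The row Gm28437 alone had 1404, 1216 and 1194 CPM in KO and 1060.5, 1300.1 and 1129.7 CPM in WT, which is 56.9% to 61.1% of the mt-Co3 pair in KO and 46.6% to 57.2% in WT. It went the other way from mt-Co3, with a log2 fold change of 0.13 (adjusted p = 0.573). Summed, mt-Co3 with its copy had 2297, 2061 and 2097 CPM in KO and 2276, 2273 and 2403 CPM in WT. KO 1 then lay above WT 1 and WT 2, the log2 fold change was -0.11 (SE 0.0484, interval -0.22 to 0.00), and the adjusted p was 0.408. The pair passed neither without WT 2 (adjusted p = 0.598) nor with the block (adjusted p = 0.418).

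The reverse held for mt-Nd4l, the smallest of the complex I subunits encoded there. As deposited it had 127, 78.1 and 119 CPM in KO and 143, 68.4 and 147 CPM in WT, with KO 2 and WT 2 far below the rest. Its copy Gm10222 had its highest values in those same samples, 10.1, 48.5 and 8.40 CPM in KO and 16.5, 73.7 and 13.8 CPM in WT. Summed, the pair had 137, 127 and 127 CPM in KO and 159.7, 142 and 161 CPM in WT, all KO samples below all WT samples. The coefficient of variation fell from 24.2% to 4.54% in KO and from 37.2% to 6.91% in WT, and the log2 fold change went from -0.10 (SE 0.289) to -0.24 (SE 0.0559, interval -0.37 to -0.11, adjusted p = 0.104).

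mt-Nd3 behaved alike. Its deposited values of 126, 197 and 141 CPM in KO and 219, 216 and 91.2 CPM in WT were lowest in KO 1 and WT 3, the samples where Gm28438 was highest (125 and 116 CPM, against 14.7 to 45.5 CPM in the others). The copy took 6.94% of the pair in KO 2 and 56% in WT 3. The sums had a log2 fold change of -0.17 with an SE of 0.130 in place of 0.315, and the genotypes overlapped (adjusted p = 0.643).

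Gm28439, the copy of mt-Nd4, was itself among the genes that fell, with 9.47, 5.11 and 3.28 CPM in KO and 22.8, 30.3 and 14.6 CPM in WT (log2 fold change -1.80, SE 0.331, limma adjusted p = 0.0442). It took at most 3.2% of its pair with mt-Nd4, whose sum had a log2 fold change of -0.18 (adjusted p = 0.247). The remaining pairs, mt-Co1, mt-Co2 and mt-Atp6, had -0.10, -0.14 and -0.08 when summed (adjusted p = 0.537, 0.302 and 0.656). With copies summed the 13 mRNAs had estimates below 0, from -0.45 to -0.08 with a median of -0.14. Only 7 of the 13 have a copy. The others, among them mt-Nd5 and mt-Atp8 with the lowest estimate, entered with their deposited values. Of all 13 mRNAs 7 had an unadjusted p under 0.05 and none passed the adjusted threshold. The smallest limma adjusted p was 0.0664, for mt-Nd5. The summed mitochondrial mRNA was then 15808, 14374 and 14999 CPM in KO and 16571, 15532 and 17182 CPM in WT, 8.32% lower in KO by the means, and KO 1 again exceeded WT 2.

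**Figure D3:**
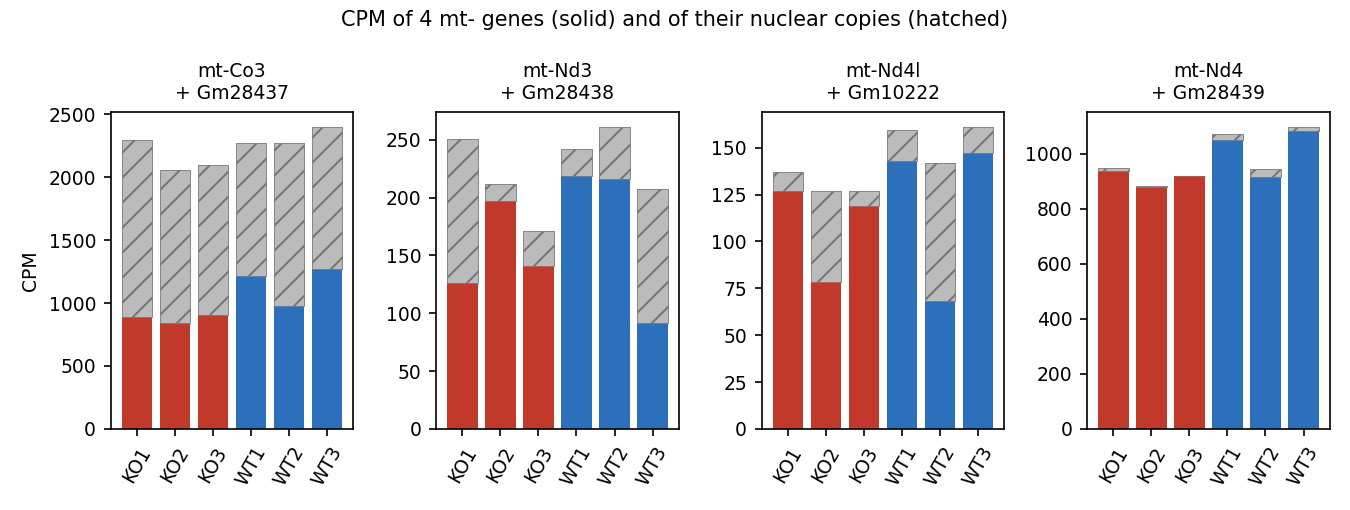
Each bar is 1 sample, its height the CPM of the mt- gene (solid, red for KO and blue for WT) plus that of its nuclear copy (hatched). For mt-Nd4l and mt-Nd3 the samples with short solid bars have tall hatched ones, and for mt-Co3 the hatched part is 46.6% to 61.1% of the pair.

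**Figure D4:**
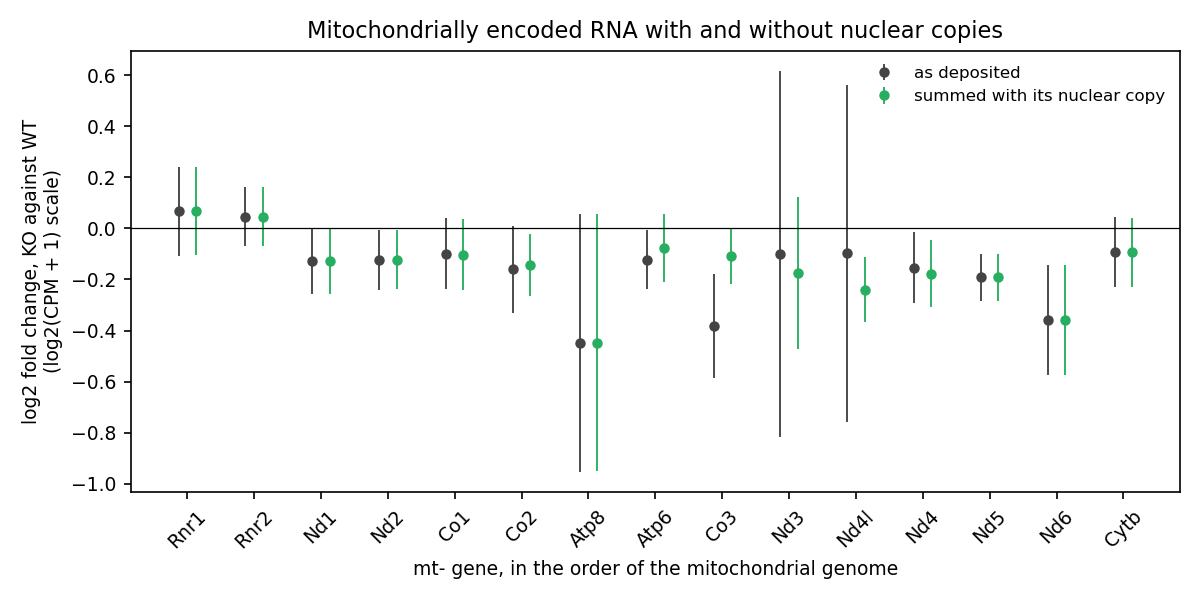
The vertical axis is the log2 fold change of KO against WT with its 95% interval before adjustment, for the 15 mt- genes in the order of the mitochondrial genome. Black points are the rows as deposited and green points the sums with the nuclear copy; summing brought mt-Co3 from -0.38 to -0.11 and narrowed the interval of mt-Nd4l and mt-Nd3.

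The mitochondrial ribosomal RNAs did not share the lower estimates of the mRNAs. mt-Rnr2, the large subunit RNA, had 688, 712 and 667 CPM in KO and 709.8, 620.2 and 673 CPM in WT, and mt-Rnr1, the small subunit RNA, had 163, 163 and 169.6 CPM in KO and 171, 137 and 167 CPM in WT. WT 2 was the lowest sample of both. Their log2 fold changes of 0.05 and 0.07 (adjusted p = 0.773 and 0.778) became -0.01 and -0.03 without WT 2. The ratio of ribosomal RNA to mRNA was 0.0683, 0.0757 and 0.0686 in KO and 0.0646, 0.0610 and 0.0592 in WT. The genotypes did not overlap, with a mean 15.04% higher in KO, and with copies added to the mRNA the ratio was 13.04% higher, KO 1 (0.0538) lying just above WT 1 (0.0532). These ratios were given no test. They describe the RNA that the libraries held, and the part of library preparation in them was not tested.

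**Figure D5:**
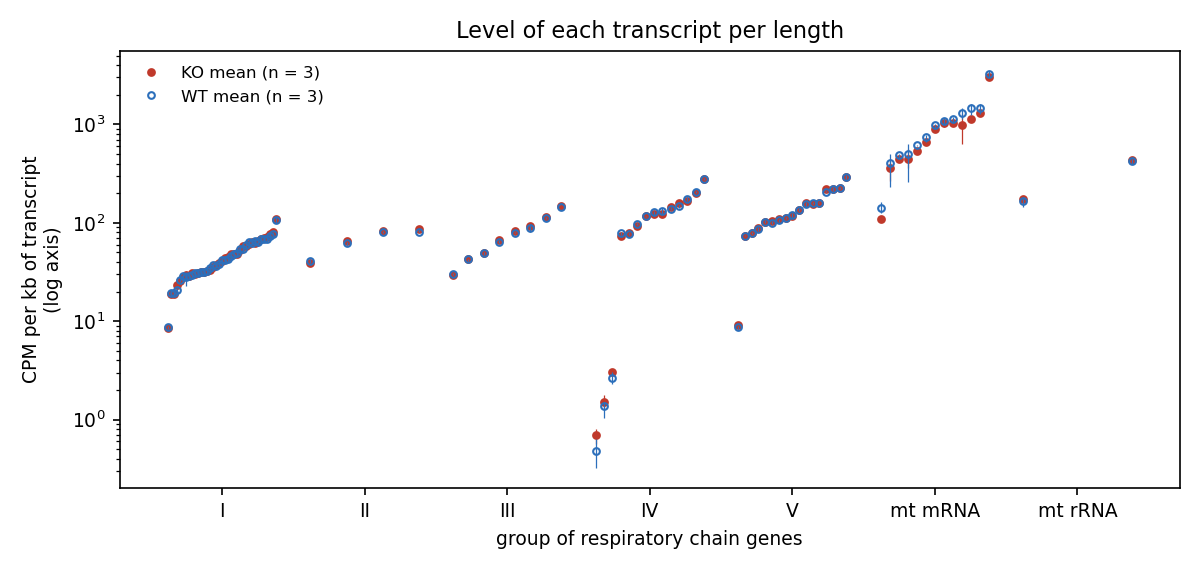
The vertical log axis is the level of each transcript in CPM per kb of its principal annotated transcript; points are genotype means, vertical lines the range of the 3 samples, and genes are ordered by level within each group. The KO and WT points nearly coincide for the nuclear subunits, and most mitochondrial mRNAs lie above all of them. The mt- levels leave out the nuclear copies.

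Per length, the mitochondrial mRNAs stood far above the nuclear subunits. In CPM per kb of the principal transcript of GENCODE M21, their median level over all samples was 938, compared with 119 for complex V, 121 for complex IV, 73.5 for complex III, 72.4 for complex II and 41.4 for complex I. mt-Co1 was highest at 3152 and mt-Nd6 lowest of the mitochondrial mRNAs at 124. The highest nuclear subunits were Atp5f1b at 293 and Cox4i1 at 278 CPM per kb. The level of a nuclear gene on this scale depends on which transcript its length is taken from. Levels of mt- genes are those of the deposited rows, without the CPM listed for their nuclear copies.

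The genes that build and serve the chain were taken as further lists. Of 50 tested assembly factors none passed the test, with 1 higher and 1 lower at an unadjusted p under 0.05, against 12.5% of all tested genes. The 2 factors were Acad9, a complex I assembly factor, with 24.5, 21.2 and 30.1 CPM in KO and 18.5, 18.9 and 22.3 CPM in WT (log2 fold change 0.32, adjusted p = 0.326), and Sdhaf3, which helps mature the iron-sulfur subunit of complex II. Sdhaf3 had 2.01, 1.94 and 2.27 CPM in KO and 3.17, 3.02 and 2.84 CPM in WT, without overlap (log2 fold change -0.38, adjusted p = 0.156). None of 9 electron carriers and entry enzymes, 17 genes of the tricarboxylic acid cycle, 31 regulators and factors of mitochondrial gene expression, or 18 genes used as a measure of mitochondrial mass passed. At an unadjusted p under 0.05 these lists held 0, 1, 3 and 2 genes, in each list a smaller share than the 12.5% of all tested genes. By direction, the tricarboxylic acid cycle had 1 lower, the regulators 2 higher and 1 lower, and the mitochondrial mass genes 2 lower. Among all tested genes 5.24% had higher and 7.3% lower values. Of the 78 tested proteins of the mitochondrial ribosome, which translates the 13 mRNAs, 54 had estimates above 0, with a median of 0.03, compared with 5767 above 0 among all 11556 tested genes. Of these proteins 6 had an unadjusted p under 0.05, 5 with higher and 1 with lower values, and none passed. Of all tested genes 12.5% did so, 5.24% with higher and 7.3% with lower values. The smallest adjusted p was that of Mrps9, with 24.6, 24.01 and 24.4 CPM in KO and 20.99, 20.5 and 20.6 CPM in WT (log2 fold change 0.22, adjusted p = 0.0821).

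The deleted cluster encodes miR-130b and miR-301b, which pair with target RNAs through a seed at bases 2 to 8. The mature miR-130b-3p is printed because its seed, in capitals, was searched for in the members (RefSeq, build GRCm38.p6).
mmu-miR-130b-3p: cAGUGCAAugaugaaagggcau
The complement of the seed, TTGCACT, was looked for on the sense strand of the annotated 3' untranslated region of 87 nuclear members, whose median length was 162 bases, and was found in 2, or 2.30%. Among 10602 tested genes with such a region, of median length 989 bases, 10.5% held it. The sites were those of Ndufa6, an accessory subunit of complex I, and Cox5b, shown with the match in capitals.
Ndufa6: tgataaaaTTGCACTggtgaacc
Cox5b: attagccaTTGCACTggctcctc
Ndufa6 had 45.9, 47.0 and 44.4 CPM in KO and 40.9, 45.6 and 44.9 CPM in WT, and Cox5b had 72.4, 66.7 and 66.0 CPM in KO and 64.4, 65.3 and 67.5 CPM in WT. The genotypes overlapped for both, with log2 fold changes of 0.06 and 0.06 (limma adjusted p = 0.682 and 0.683). The mature miR-301b-3p was not examined.

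By position, the nuclear members were set beside the genes that passed the test: 13 of 90 (14.4%) had a gene that passed the test within 10 tested genes on either side, compared with 16.5% of all tested genes off the mitochondrial chromosome. Cox6c on chromosome 15 had the most, 8 within that window, and did not itself pass the test (log2 fold change -0.10, adjusted p = 0.599).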

How the data were processed

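Total RNA of 3 KO and 3 WT samples was sequenced in paired ends, per the labels. The authors deposited CPM values per gene, per the file headers. The submitters' processing notes name the build GRCm39. The aligner, counter, annotation and strand setting are not given in the sources used here. Columns summed to between 989223 and 1018258, so a scaling beyond library size was applied, depth is unknown, and no counting interval was computed. A single deposited p-value without a label was not used. All sample columns were used (0 left out).

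The members and lists were chosen with earlier results of these data known. Genes reaching 1 CPM in 3 or more samples, 11556 in all, were fitted on log2(CPM + 1) with limma 3.58.1 (R 4.3.3; empirical Bayes moderation with a mean-variance trend, two-sided, Benjamini-Hochberg adjustment over all of them, threshold 0.05), which was tested on simulated data. Fold changes on this scale understate the change of low genes. Intervals are at 95%. Sums over complexes, ratios and lists were given no test. Copies were found with BLASTN 2.17.0 against GENCODE M21 transcripts (rows annotated as pseudogenes, at least 99% identity over at least 80% of the shorter transcript). Of the 109 members 108 matched that annotation by identifier.

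Named genes were all mt- genes, the most abundant and most extreme members of each complex, and members with textbook roles. The values of 1 gene under this rule are not reported here. Others named (Ndufb4, Ndufb5, Cox7b and Ndufa6, the copies and the list genes) were chosen after their values were seen. Alternatives covered pseudocounts, filters, scalings, moderation, the replicate number as a block, each sample left out, and copies summed.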

Additional observations from a re-analysis of the deposited data

How the results depend on the processing

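Of 984 alternative values for the 54 named genes, 946 kept their direction and their side of the threshold, 36 changed sign, and 2, both of mt-Co3, passed the threshold. All log2 ratios of complexes and of mitochondrial to nuclear RNA moved by less than 1 pooled SD. The ratios of complexes I to V were themselves smaller than that SD, so such a move can change their sign. Without WT 1 those of complexes I and V fell below 0. Over all tested genes 147 passed, 74 without the mean-variance trend (51.4% of them higher in KO, against 38.1%), and 55 to 243 with 1 sample left out: 55 without WT 3, 58 without WT 2, 63 without KO 1 and 243 without WT 1. Of the members, 0 to 1 passed with a sample left out. At an unadjusted p under 0.05 the 8 members became 3 without the trend and 4 to 11 with a sample left out (4 without KO 2, 11 without WT 2). With columns scaled without mt- genes there were again 8 members, but only 3 of them were mitochondrial mRNAs.

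With the replicate number as a block, 1 member (mt-Co3) and 142 of all tested genes passed, and no other call among the members changed. Deviations of same-numbered samples correlated at 0.000154, 0.0834 and 0.0646. KO 2 correlated best with WT 2 and KO 3 with WT 3, whereas KO 1 correlated best with WT 3 (0.0285). Correlations this small do not decide whether the numbers pair the samples, and the labels do not say.

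Scaling changed the sign of Atp5f1a (0.018 under quantile normalization, 0.0087 without mt- genes), Atp5f1c (0.012 without mt- genes) and Ndufs1 (0.00013 by median of ratios, 0.0048 by quantiles, 0.019 without mt- genes). The scaling without mt- genes also undoes the deposited scaling between libraries. Quantile normalization sets mt-Co1 to 0 because it ranks alike in every sample. With 1 sample left out, log2 fold changes crossed 0 for Atp5f1a (-0.035 to 0.0010), Atp5f1b (-0.038 to 0.034), Atp5f1c (-0.034 to 0.017), Atp5if1 (-0.0027 to 0.067), Atp5mc2 (-0.012 to 0.049), Cox4i1 (-0.016 to 0.027), Cox6a2 (-0.0035 to 0.13), Cox6b1 (-0.055 to 0.0067), Cox7a2l (-0.020 to 0.058), Ndufb8 (-0.0021 to 0.090), Ndufs1 (-0.049 to 0.037), Sdha (-0.00057 to 0.044), Uqcrc2 (-0.014 to 0.035), Uqcrfs1 (-0.017 to 0.023), Uqcrq (-0.069 to 0.0048), mt-Nd3 (-0.52 to 0.11), mt-Nd4l (-0.46 to 0.12), mt-Rnr1 (-0.033 to 0.13) and mt-Rnr2 (-0.0055 to 0.092). The cause was not tested. Depth is unknown, 3 samples a group limit the precision, and the division of reads between mitochondrial genes and nuclear copies limits the values of single mt- genes.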
